A study of Homo sapiens with 4 samples.

Results

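The urokinase system is described here in MDA-MB-231 cells, an established line of human triple-negative breast cancer, after infection with a lentivirus that expressed a short hairpin RNA. The genes were taken by symbol from a named list of 9 (PLAU, PLAUR, PLAT, SERPINE2, SERPINB2, ST14, SPINT1, SPINT2 and S100A8), and all 9 were found among the 25133 rows that carry a symbol. The shJARID2 group carried a hairpin against JARID2, an accessory subunit of Polycomb repressive complex 2, and the shSCR group carried a scrambled hairpin. Both groups were infected, and each had 2 libraries. All 4 libraries come from the same line, and neither the number of hairpins nor whether replicates were separate cultures is given in the labels, so a p-value here reflects spread among libraries that may be technical. Levels are FPKM, read counts divided by gene length and by library size. Levels of different genes can be compared only roughly, since counting rules, overlapping genes and GC content may also affect them. In such bulk RNA fewer cells that express a gene and less of its RNA per cell cannot be told apart.

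Urokinase, the product of PLAU, is a secreted serine protease that cuts plasminogen into plasmin, which degrades fibrin and matrix proteins and activates other proteases. Its receptor, the product of PLAUR, is anchored to the outer face of the cell membrane by a glycolipid and holds urokinase there. Serpins block urokinase in a covalent complex. Matriptase, the product of ST14, is a membrane protease that can activate pro-urokinase, and the Kunitz proteins HAI-1 and HAI-2, from SPINT1 and SPINT2, inhibit it. High urokinase in breast tumours is an established marker of poor outcome, and MDA-MB-231 is a common model of this system.

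PLAU and PLAUR moved apart, and the starts of both genes are shown for that reason. The windows run from 250 bases before to 50 bases after an annotated start and come from RefSeq on GRCh38.p14. Windows of 6 of the 9 genes were included here. That the others were left out does not show what RefSeq holds for them. Capitals mark GGGCGG, the GC box, and TGANTCA, a pattern that includes the AP-1 element. Both were searched on both strands, a GC box on the opposite strand reads CCGCCC, and the marked matches do not overlap. TATAAA was searched too and had no match in these 3 windows. The first PLAU window lies at chr10:73910882-73911181 (+ strand), the second at chr10:73910360-73910659 (+ strand), and the PLAUR window at chr19:43670120-43670419 (- strand).
PLAU, start at 73911132: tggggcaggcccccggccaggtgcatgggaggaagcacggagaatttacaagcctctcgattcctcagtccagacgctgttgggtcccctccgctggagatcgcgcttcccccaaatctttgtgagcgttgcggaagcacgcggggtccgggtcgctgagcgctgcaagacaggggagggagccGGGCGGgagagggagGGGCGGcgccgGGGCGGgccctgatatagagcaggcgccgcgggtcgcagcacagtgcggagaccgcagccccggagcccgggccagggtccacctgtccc
PLAU, start at 73910610: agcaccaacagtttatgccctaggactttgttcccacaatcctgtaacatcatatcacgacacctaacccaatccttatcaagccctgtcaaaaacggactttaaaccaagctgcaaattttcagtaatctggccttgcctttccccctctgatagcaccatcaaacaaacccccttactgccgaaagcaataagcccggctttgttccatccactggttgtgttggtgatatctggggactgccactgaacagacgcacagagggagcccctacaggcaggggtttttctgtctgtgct
PLAUR, start at 43670169: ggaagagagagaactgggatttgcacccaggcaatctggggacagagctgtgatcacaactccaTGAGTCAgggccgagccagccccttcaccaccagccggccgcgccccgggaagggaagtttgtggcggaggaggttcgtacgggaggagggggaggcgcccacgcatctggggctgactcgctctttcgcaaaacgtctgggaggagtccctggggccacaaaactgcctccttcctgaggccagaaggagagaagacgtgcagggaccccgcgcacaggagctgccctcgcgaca

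The PLAU window at 73911132 held 3 GC boxes, which began at positions -66, -51 and -40 from the start, and no TGANTCA. The upstream PLAU window held neither. The PLAUR window held 1 TGANTCA, which began at position -186, and no GC box. Among 35116 windows of this length, 45.0% held a GC box, 7.71% held TGANTCA and 11.5% held TATAAA. The GC content was 70.0% in the PLAU window at 73911132, 48.7% in the upstream PLAU window and 64.0% in the PLAUR window, against a median of 58.7% over all windows. These matches describe letters and say nothing of which start the cells used.

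Knockdown of JARID2 was visible in both libraries of its group. JARID2 measured 3.88 and 3.91 FPKM in shJARID2, against 10.8 and 10.8 FPKM in shSCR (log2 fold change -1.27, SE 0.059, adjusted p = 0.0014, limma). Depth, read from the steps between low FPKM values, was about 12900000 and 12800000 reads in shJARID2, against 15500000 and 16200000 in shSCR. Of 8 markers of mesenchymal-like MDA-MB-231 cells, all were found and 7 reached 1 FPKM in at least 1 library. Their summed level was 635 to 645 FPKM in shJARID2 and 779 to 797 FPKM in shSCR. This sum hides opposite moves. By the test described below, as measured, AXL, VIM, KRT8 and KRT18 were lower, CAV1 and CD44 were higher, and MSN did not pass. After GC correction AXL and KRT8 were still called lower and CAV1 higher. VIM (-0.34), KRT18 (-0.33) and CD44 (0.11) then did not pass, and MSN was called higher (0.17). AXL, the highest of these markers in shSCR, measured 167 and 186 FPKM in shJARID2, against 393 and 417 FPKM in shSCR. Its log2 fold change was -1.19, and -0.62 with the GC correction described below. VIM, which encodes vimentin and is usually abundant in this line, was listed at only 2.10 and 2.77 FPKM in shJARID2 and 3.54 and 4.20 FPKM in shSCR, so a low listed value need not mean low expression. Of 8 markers of luminal cells, 7 were found and summed to 7.43 to 8.61 FPKM in shJARID2 and 12.4 FPKM in both shSCR libraries, with ESR1, PGR, GATA3 and CDH1 below 1 FPKM throughout. The 8 markers of fibroblasts, leukocytes and endothelium were all below 1 FPKM, at a sum of 0.504 to 0.585 FPKM in shJARID2 and 1.14 to 1.24 FPKM in shSCR. KRT8, KRT18 and CAV1 are in the marker list of the line and in the pathway lists described further on. What part these marker shifts have in the results was not tested.

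Fold changes in these libraries followed the GC content of transcripts, and each change is therefore given as measured and corrected. The GC-corrected value comes after the dependence on GC content was smoothed and subtracted within each library. Changes are log2 fold changes of FPKM + 1, shJARID2 over shSCR, and a gene is called at an adjusted p below 0.05 by limma with Benjamini-Hochberg adjustment over 12455 genes whose mean was at least 1 FPKM. The added 1 shrinks the change of a low gene.

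Of the 9 genes, 4 passed this filter; 1 of them (PLAU) was called higher and 3 (PLAUR, PLAT and SPINT2) lower. These counts stand beside 28.0% of all tested genes called higher and 31.6% called lower, so a call as such was common. After GC correction 1 was higher and 2 lower, beside 22.7% and 21.4% of 12039 genes. The median log2 fold change of the 4 was -0.85 (GC-corrected -0.51), against -0.018 (GC-corrected 0.00023) over all genes tested. The other 5 genes had a mean below 1 FPKM. In a fit with no filter on low values none of the 5 was called (unadjusted p from 0.28 to 0.78, limma).

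**Figure D1:**
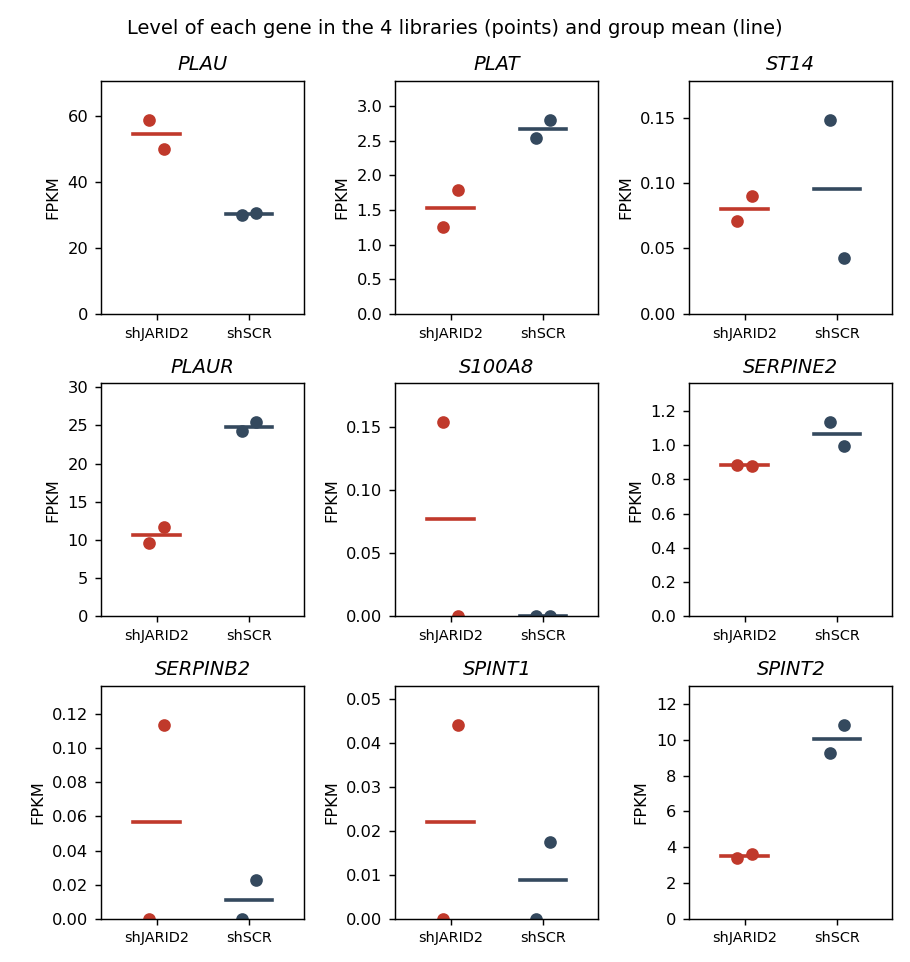
Level in FPKM (vertical axis, from 0, with its own scale in each panel) of the 9 genes in the 2 shJARID2 libraries (left) and the 2 shSCR libraries (right). Points are libraries and lines are group means. The shJARID2 points of PLAU (50.1 and 59.0) lie above those of shSCR (30.1 and 30.7), and those of PLAUR, PLAT and SPINT2 lie below.

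Among the proteases, PLAU rose. On GRCh38, PLAU (ID 5328) occupies bases 73909177 to 73917497 of chromosome 10, + strand. PLAU measured 59.0 and 50.1 FPKM in shJARID2, against 30.1 and 30.7 FPKM in shSCR. Both shJARID2 libraries stood above both shSCR libraries, and the shSCR pair lay closer together. The mean was 54.5 ± 6.26 FPKM in shJARID2 and 30.4 ± 0.428 FPKM in shSCR (SD, n = 2 each), a ratio of 1.80. About 2248 and 1889 reads stood behind the shJARID2 values and 1371 and 1461 behind the shSCR values. PLAU changed by 0.82 on the log2 scale (SE 0.087, adjusted p = 0.0027, limma), and GC-corrected by 1.09 (SE 0.10, adjusted p = 0.0029, limma). Groups that do not overlap were frequent, at 83.5% of tested genes.

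PLAU was also placed higher within each library. It stood at the 96.3 and 95.4 percentile of tested genes in shJARID2, against 89.6 and 89.8 in shSCR. Exons of C10orf55, a gene on the opposite strand, cover 31.1% of the exon bases of PLAU. C10orf55 was listed at 1.60 and 1.09 FPKM in shJARID2 and 0.796 and 0.860 FPKM in shSCR (log2 fold change 0.35, adjusted p = 0.13, limma; GC-corrected 0.77, which was called). Whether counting used strand is not given in the sources used here, so reads of PLAU and C10orf55 cannot be told apart in the shared stretch.

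PLAT, which encodes tissue plasminogen activator, the second activator of plasminogen, was low and was called lower. PLAT (ID 5327) occupies bases 42175233 to 42207724 of chromosome 8, - strand. PLAT measured 1.26 and 1.78 FPKM in shJARID2, against 2.53 and 2.80 FPKM in shSCR, from 108 and 151 reads against 259 and 299. The groups did not overlap, but the shJARID2 libraries differed from each other by more than those of shSCR did. Its log2 fold change of -0.55 (SE 0.14, adjusted p = 0.030, limma) passed as measured. This call ended after GC correction (-0.23, adjusted p = 0.20, limma), with no filter on low values (adjusted p = 0.084, limma), and without shSCR replicate 1 (-0.60), shSCR replicate 2 (-0.50) or shJARID2 replicate 1 (-0.40).

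ST14 was barely detected. It was listed at 0.0710 and 0.0898 FPKM in shJARID2, against 0.148 and 0.0426 FPKM in shSCR, which corresponds to 4 and 5 reads against 10 and 3. The shJARID2 values fell between those of shSCR, so no difference was detectable at this depth. Most genes of a wider list of serine proteases, which also holds secreted enzymes and convertases, were low as well. Of 21 such genes found outside the list of 9, only PRSS23 and FURIN passed the filter.

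The receptor gene PLAUR fell. PLAUR (ID 5329) occupies bases 43646095 to 43670547 of chromosome 19, - strand, and no exon of another gene overlaps its own. PLAUR measured 9.55 and 11.7 FPKM in shJARID2, against 24.2 and 25.4 FPKM in shSCR. All of the shJARID2 values were well below those of shSCR. The mean was 10.6 ± 1.49 FPKM in shJARID2 and 24.8 ± 0.819 FPKM in shSCR (SD, n = 2 each), a ratio of 0.427. These values rest on 550 and 664 reads in shJARID2 and 1671 and 1829 reads in shSCR. PLAUR had a log2 fold change of -1.16 (SE 0.10, adjusted p = 0.0019, limma) and GC-corrected of -0.78 (SE 0.077, adjusted p = 0.0033, limma). Its place among tested genes was the 62.2 and 67.9 percentile in shJARID2, against 86.0 and 86.7 in shSCR.

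Protease and receptor levels lay apart in shJARID2 and near each other in shSCR. The ratio of PLAU to PLAUR was 6.18 and 4.30 in shJARID2, against 1.24 and 1.21 in shSCR. Such a ratio is taken within a library and is not moved by how libraries are scaled. On the log2 scale it was 2.08 higher in shJARID2. With 1 added to each FPKM, which lets scaling matter, it was 1.98 higher, and 1.88 higher after GC correction. The ratio is given as a description; for such a single value an exact two-sided permutation test of 2 libraries against 2 cannot give a p below 0.333.

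**Figure D2:**
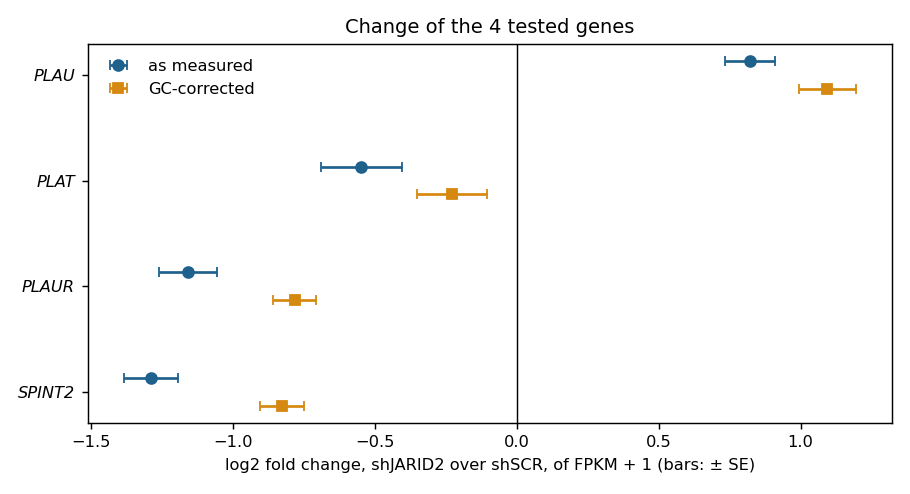
Log2 fold change of FPKM + 1, shJARID2 over shSCR (horizontal axis), for the 4 tested genes. Circles are the values as measured, squares the GC-corrected ones, and bars are ± SE from limma. PLAU lies right of 0 in both, PLAUR and SPINT2 lie left of 0 in both, and PLAT moves toward 0 with the correction.

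Of the inhibitors among the 9 genes, only SPINT2 passed the filter, and it fell. SPINT2 (ID 10653, bases 38244035 to 38292614 of chromosome 19, + strand) encodes HAI-2, a Kunitz inhibitor of matriptase, hepsin and related proteases. It measured 3.40 and 3.64 FPKM in shJARID2, against 9.28 and 10.8 FPKM in shSCR. The shJARID2 pair was tight and lay far below the shSCR pair. The mean was 3.52 ± 0.166 FPKM in shJARID2 and 10.1 ± 1.10 FPKM in shSCR (SD, n = 2 each), a ratio of 0.350, from 228 and 242 reads against 746 and 910. SPINT2 had a log2 fold change of -1.29 (SE 0.095, adjusted p = 0.0015, limma) and GC-corrected of -0.83 (SE 0.077, adjusted p = 0.0030, limma). Exons of AC011479.1 cover 4.65% of its exon bases.

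SPINT1, which encodes HAI-1, was at the edge of detection. It was listed at 0 and 0.0441 FPKM in shJARID2 and at 0 and 0.0174 FPKM in shSCR, so at most 2 reads stood behind any value. The ratio of ST14 to SPINT1 and SPINT2 together was 0.0209 and 0.0244 in shJARID2, against 0.0160 and 0.00393 in shSCR, and rests on the few ST14 reads above. In both groups the SPINT2 level was far above that of ST14.

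The serpin genes in the list were low. SERPINE2 encodes protease nexin-1, an extracellular inhibitor of thrombin and urokinase. It measured 0.886 and 0.878 FPKM in shJARID2, against 1.13 and 0.994 FPKM in shSCR, from 102 and 100 reads against 156 and 143. The groups did not overlap, but its mean of 0.973 FPKM lay just below the filter. With no filter its log2 fold change of -0.13 (SE 0.11) did not pass (adjusted p = 0.44, limma). SERPINB2, which encodes PAI-2, an inhibitor of urokinase, was listed at 0 and 0.114 FPKM in shJARID2 and at 0 and 0.0225 FPKM in shSCR, with at most 4 reads.

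S100A8 encodes a calcium-binding protein that pairs with S100A9 in myeloid cells and is neither a protease nor a protease inhibitor. It was listed at 0.154 and 0 FPKM in shJARID2, with 2 reads in replicate 1, and at 0 in both shSCR libraries. No difference was detectable at this depth for SERPINB2, SPINT1 or S100A8.

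The order of group means was PLAU, PLAUR, SPINT2, PLAT and SERPINE2 in both groups. Libraries of neighbouring genes in this order did not overlap in either group. Below SERPINE2, the values of SERPINB2, SPINT1 and S100A8 overlapped or met at 0 in both groups, and their order cannot be told. ST14 lay above SPINT1 in both groups, and above SERPINB2 and S100A8 in shSCR only, on few reads.

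The GC content of transcripts moved with fold change, and its values for the 4 tested genes were alike: 54.0% for PLAU, 55.8% for PLAUR, 54.8% for PLAT and 57.3% for SPINT2. Among 652 other tested genes within 1 percentage point of PLAU, the median log2 fold change was -0.29, and the middle 90% ran from -0.99 to 0.48. PLAU, at 0.82, lay above that range. Among 704 genes near PLAUR the median was -0.38 and the range -1.07 to 0.32, and among 712 near SPINT2 they were -0.47 and -1.22 to 0.31. PLAUR and SPINT2 both lay below their range. PLAT, at -0.55, lay inside that of 673 genes like it (median -0.31, from -1.04 to 0.43). The part of GC content in the changes of these genes was not tested beyond the correction.

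**Figure D3:**
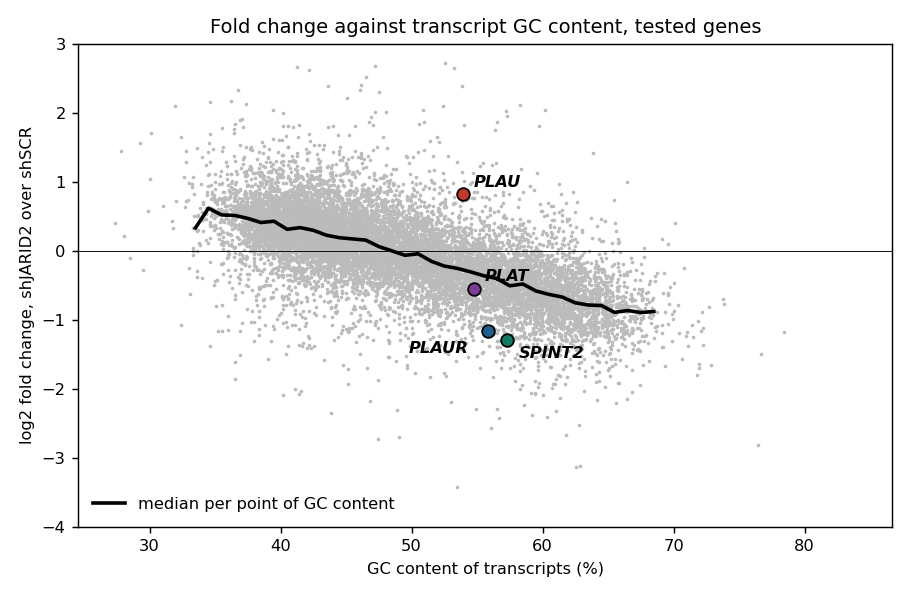
Log2 fold change, shJARID2 over shSCR (vertical axis), against the GC content of transcripts in % (horizontal axis). Grey points are tested genes, the black line is their median in each percentage point that holds at least 20 genes, and large points mark the named genes. PLAU stands above the line at 0.82, and PLAUR (-1.16) and SPINT2 (-1.29) stand below it.

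The genes whose pattern over the 4 libraries was most like that of PLAU were sought among 6548 genes with a mean of at least 5 FPKM. Likeness was the distance between log2(FPKM + 1) values, each centred on its mean. KATNBL1, a katanin-like gene, was nearest (distance 0.019), with 13.7 and 11.6 FPKM in shJARID2 and 6.58 and 6.87 FPKM in shSCR. NOV, which encodes a matricellular protein of the CCN family, followed (0.033), with 33.0 and 28.2 FPKM in shJARID2 and 16.3 and 16.6 FPKM in shSCR. BID, which encodes a BH3-only death agonist, was next (0.037). KATNBL1 has 6 annotated pseudogene copies, so its reads may have been shared.

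For PLAUR the nearest genes were TCIRG1, a proton pump subunit (0.019), CDC42EP1, an effector of CDC42 (0.035), and CCDC22, a regulator of endosomal sorting (0.036). TCIRG1 measured 10.9 and 13.1 FPKM in shJARID2, against 26.9 and 28.7 FPKM in shSCR. Their GC-corrected log2 fold changes were -0.33, -0.44 and -0.46, against -0.78 for PLAUR, so the likeness held as measured and less so after correction. After correction NOV (1.06) and BID (1.09) stayed near PLAU (1.09), and KATNBL1 was at 0.49. With 4 libraries in 2 groups many genes share such a pattern.

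Around these genes, 114 others of the pathway were listed in 7 groups, of which 110 were found and 68 tested. Of the 68, 16 were higher, 34 lower and 18 did not pass; after GC correction 16 were higher, 18 lower and 34 did not pass. Over all genes 28.0% were higher and 31.6% lower as measured, and 22.7% and 21.4% GC-corrected; the corrected counts lie near those shares, and the counts of the lists below, of 2 to 17 genes each, are given as descriptions. Their median log2 fold change was -0.18 (GC-corrected -0.053). Without shSCR replicate 2, 11 were higher and 22 lower.

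Plasminogen itself is made in the liver, and PLG was listed at 0.036 FPKM in shJARID2 replicate 1 and 0 in the other libraries. Among the 5 tested plasminogen receptors, 2 were called higher and 3 lower (GC-corrected 2 and 2). PLGRKT, a membrane receptor for plasminogen, measured 12.4 and 11.4 FPKM in shJARID2, against 5.06 and 4.47 FPKM in shSCR (log2 fold change 1.16, GC-corrected 0.97). ANXA2, part of the annexin A2 receptor for tissue plasminogen activator and plasminogen, rose less, to 184 and 154 FPKM in shJARID2, against 126 and 127 FPKM in shSCR (0.40, GC-corrected 0.43). ENO1, the glycolytic enzyme enolase that also binds plasminogen at the surface, fell (-1.05, GC-corrected -0.87). The keratin genes KRT8 (-1.06, GC-corrected -0.55) and KRT18 (-0.77) fell as measured, and KRT18 did not pass after correction (-0.33). KRT8 has 50 and KRT18 has 68 pseudogene copies, ENO1 has 4 and ANXA2 has 3, so these calls are uncertain. S100A10, the partner of annexin A2, is not analysed here.

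Of 13 receptor partners and clearance receptors tested, 2 were higher and 8 lower, and after GC correction 2 were higher and 5 lower. LRP1, which clears complexes of urokinase with serpins and its receptor, measured 6.73 and 6.91 FPKM in shJARID2, against 13.3 and 14.2 FPKM in shSCR (-0.91, GC-corrected -0.31). LRP8, a receptor of the same family, fell by 0.87 (GC-corrected -0.58), and ITGB5, an integrin subunit that binds vitronectin, fell by 0.77 (GC-corrected -0.41). CAV1, which encodes caveolin-1, rose to 205 and 186 FPKM in shJARID2, against 101 and 99.0 FPKM in shSCR (0.95, GC-corrected 0.80).

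F2RL1 and F3 were called higher as measured and GC-corrected. F2RL1 encodes PAR2, a receptor that matriptase can cleave, and measured 129 and 127 FPKM in shJARID2, against 62.8 and 59.6 FPKM in shSCR (1.06, GC-corrected 1.0). F3, which encodes tissue factor, measured 125 and 120 FPKM in shJARID2, against 72.3 and 70.5 FPKM in shSCR (0.77, GC-corrected 0.52). F2R, the thrombin receptor gene PAR1, was chosen after its values were seen and was called in both too (0.77, GC-corrected 1.09). Of the related genes, F2RL2 was called higher as measured (0.51) and did not pass after GC correction (0.24, adjusted p = 0.11, limma), and F2RL3 was too low to be tested. In the list of 14 tested substrates and receptors that holds them, 6 were higher and 5 lower (4 and 3 after GC correction). MMP14, a membrane metalloprotease, fell to 22.6 and 24.3 FPKM in shJARID2, against 61.1 and 61.4 FPKM in shSCR (-1.35, GC-corrected -0.79). TGFB1, whose latent product plasmin can activate, fell by 1.50 (GC-corrected -1.0). MET, the receptor of hepatocyte growth factor, did not pass (0.040, adjusted p = 0.47, limma) but was called lower after GC correction (-0.19).

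Of 9 further serpins tested, 2 were higher and 3 lower, near the shares over all genes (2 and 0 after GC correction). SERPINB1, an inhibitor of neutrophil proteases, rose (0.79, GC-corrected 0.85) with SERPINB8, an inhibitor of furin (0.46, GC-corrected 0.27). SERPINH1, a collagen chaperone of the serpin fold, was lower as measured (-0.81) and at -0.072 after correction, where it did not pass, and SERPINB6 was at -0.17 and -0.028 in the same way. Of 8 Kunitz and other pericellular inhibitors tested, 2 were higher and 3 lower (2 and 1 after GC correction). TIMP2, an inhibitor of metalloproteases, rose (0.65, GC-corrected 0.75), APLP2, which carries a Kunitz domain, fell (-1.08, GC-corrected -0.91), and TIMP1 was lower only as measured (-0.50, GC-corrected 0.0053). CST3, which encodes cystatin C, was called lower as measured (-0.60) and higher after GC correction (0.19). TFPI, the inhibitor of tissue factor, is named with its values already known; it was higher as measured (0.26) and did not pass when corrected (-0.080). TFPI2, a Kunitz inhibitor of plasmin, did not pass in either (0.15, GC-corrected -0.046).

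Of the 2 trypsin-like or convertase genes tested, FURIN, a proprotein convertase, was called lower in both fits (-0.95, GC-corrected -0.25). PRSS23 was called higher as measured (0.24) and did not pass when corrected (0.075).

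**Figure D4:**
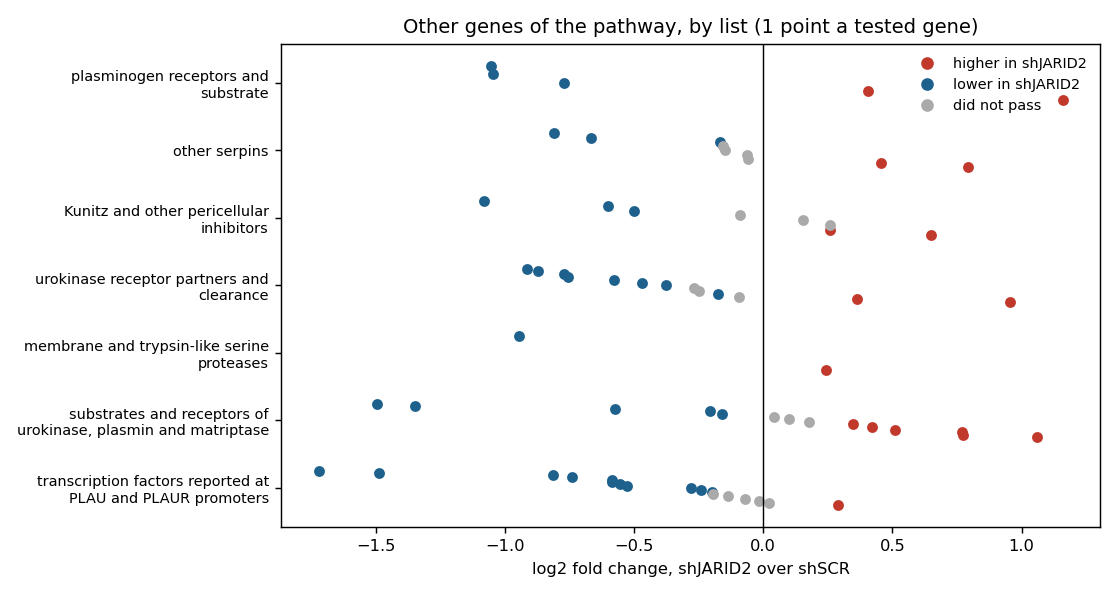
Log2 fold change as measured, shJARID2 over shSCR (horizontal axis), of the 68 tested pathway genes outside the 9, by list (rows). Each point is a gene, red if called higher, blue if called lower and grey if it did not pass. The lowest points are ETV4 at -1.72 and TGFB1 at -1.50, and the highest are PLGRKT at 1.16 and F2RL1 at 1.06.

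Of 17 transcription factors reported at the PLAU and PLAUR promoters, 1 was higher and 11 lower as measured, beside 28.0% and 31.6% of all genes. After GC correction 4 were higher and 6 lower, beside 22.7% and 21.4%. ETV4, a factor of the ETS family, measured 2.78 and 2.88 FPKM in shJARID2, against 11.8 and 11.4 FPKM in shSCR (-1.72, GC-corrected -1.14). KLF4, a zinc finger factor, fell (-0.74, GC-corrected -0.42), as did FOSL2, a subunit of AP-1 (-0.58, GC-corrected -0.17). RELA, a subunit of NF-kB, was lower only as measured (-0.81, GC-corrected -0.12). FOSL1, the AP-1 subunit with the highest level, at 438 and 421 FPKM in shJARID2 and 492 and 492 FPKM in shSCR, is named here with its values already known. It was called lower as measured (-0.20) and higher after GC correction (0.41).

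**Figure D5:**
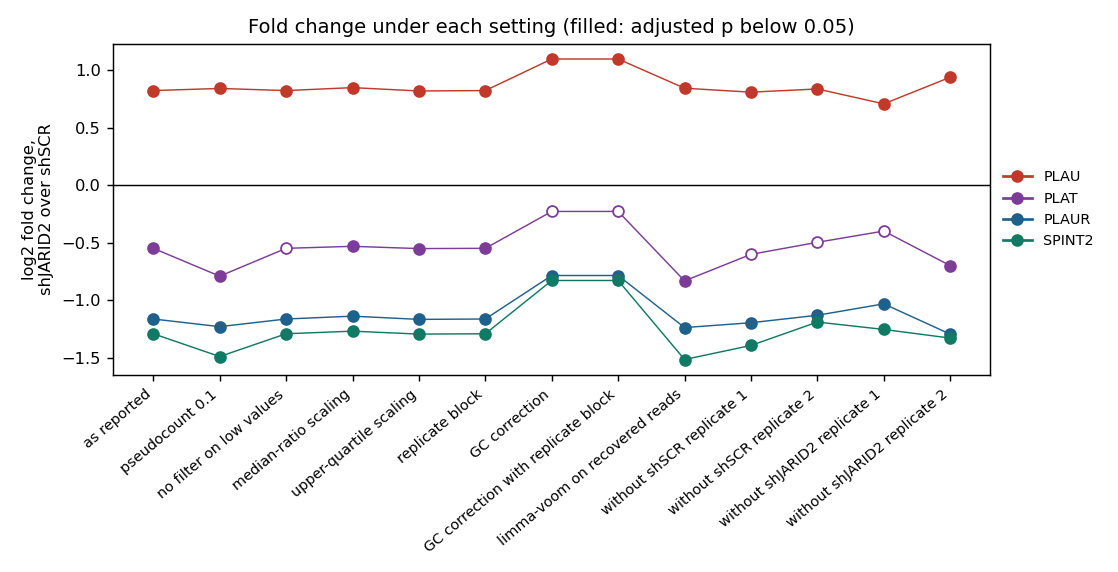
Log2 fold change, shJARID2 over shSCR (vertical axis), of the 4 tested genes as reported and under 12 alternative settings (horizontal axis). Filled points have an adjusted p below 0.05 by limma and open points do not. PLAU stays between 0.71 and 1.09 and PLAUR between -1.29 and -0.78, all filled, while PLAT is open under 6 settings.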

How the data were processed

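RNA of 4 libraries was sequenced, and its authors deposited gene-level FPKM values (named so in the file headers). Trimmomatic, HISAT2, SAMtools and featureCounts are named without versions in the submitters' processing notes; build, annotation, strand setting and the rule for multiply matching reads were not given in the sources used here. Of 85553 rows, 25133 carry a symbol. FPKM multiplied by GENCODE release 29 exon length (24205 symbols matched) fell within 0.05 of whole reads for 95.9% to 96.4% of values up to 20 reads, which gave depths and the use of GRCh38 coordinates.

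Log2(FPKM + 1) of genes with a mean of at least 1 FPKM was tested across all genes with limma 3.58.1 (R 4.3.3; trended prior, group only) and Benjamini-Hochberg adjustment. For GC correction, deviations from each gene's mean were smoothed on median transcript GC content per library (loess, span 0.3) and subtracted. The fits were tested on simulated data: with a GC trend present, the fit without correction called many unchanged genes and the corrected fit few. That trend was set on GC content itself and in shJARID2 only, so this outcome follows from the setting. A call as measured alone may follow GC content, and whether the trend in the data is technical was not tested. Replicates differed by more than sampling noise (chi-square per degree of freedom 3.70 in shJARID2 and 3.20 in shSCR). Members and lists were chosen with earlier results of these data known. Named were the 9 members, JARID2, 8 set pathway genes, up to 4 called genes per list with a mean of at least 5 FPKM, and the 3 genes nearest to PLAU and PLAUR; 1 gene under this rule is counted in its list and not reported here.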

Additional observations from a re-analysis of the deposited data

How the results depend on the processing

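PLAU, PLAUR and SPINT2 kept direction and call under all 12 alternatives. Their log2 fold changes ran from 0.71 to 1.09, from -1.29 to -0.78 and from -1.51 to -0.83. PLAT kept its direction and lost its call under 6 (adjusted p up to 0.20, limma). Pathway genes called lower numbered 34 as reported, 18 with GC correction, 19 with GC correction and the replicate block, and 22 to 30 with 1 library left out. Of all genes, 3941 were lower as reported, 2582 with GC correction, 2326 with that and the block, and 2462 to 3763 with 1 library left out; 3493 were higher as reported and 2168 to 3068 with 1 left out. Among the counts with 1 library left out, the lowest came without shSCR replicate 2. The cause of these shifts was not tested. With 1 library left out, the lone library of its group is assumed to vary like the other group.

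Same-numbered libraries did not deviate together (correlation 0.029), so the numbers are not taken as pairs. With the replicate number as a block, 3380 genes were higher and 3831 lower, and of the 9 genes 1 was higher and 3 lower, as reported. Depth limits ST14, SPINT1, SERPINB2 and S100A8, which had at most 10 reads in a library.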

Other observations

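The genes that follow were picked after their values were seen. F12, which encodes coagulation factor XII, had too low a mean to pass the filter, with 0.167 and 0.338 FPKM in shJARID2 and 1.82 and 1.36 FPKM in shSCR. With no filter on low values F12 was called lower (log2 fold change -1.05, SE 0.15, adjusted p = 0.021, limma). This rests on 6 and 12 reads in shJARID2 and 78 and 61 in shSCR. The GC content of its transcripts was 68.2%, and it was not in the GC-corrected fit. LYPD6, which shares the three-finger fold of the urokinase receptor, measured 5.49 and 5.52 FPKM in shJARID2 and 5.0 and 4.46 FPKM in shSCR and did not pass (0.19, adjusted p = 0.11, limma). EPCAM, an epithelial adhesion protein in the luminal marker list, measured 4.90 and 3.78 FPKM in shJARID2 and 1.36 and 1.35 FPKM in shSCR (log2 fold change 1.18, adjusted p = 0.0032, limma; GC-corrected 0.99). The other 2 tested luminal markers moved the other way as measured. KRT19, a keratin, measured 1.39 and 1.04 FPKM in shJARID2 and 7.51 and 7.85 FPKM in shSCR (log2 fold change -1.98, adjusted p = 0.0014, limma; GC-corrected -1.39). FOXA1, a transcription factor, was called lower as measured (-0.41, adjusted p = 0.022, limma) and did not pass with the sign turned after GC correction (0.17, adjusted p = 0.21, limma).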
